A study of Mus musculus with 6 samples.

Results

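Integrins are cell surface receptors made of 1 alpha and 1 beta chain, and the 10 chains described here are those that white blood cells and platelets are best known for. They were taken by gene symbol (Itgam, Itgb2, Itgal, Itgax, Itga4, Itgb1, Itgb7, Itga2b, Itgb3 and Itga6) from a table of 43432 genes, each matched 1 Ensembl identifier, and all 10 were among the 9923 genes abundant enough to test. Itgam encodes CD11b, the protein by which the cells were sorted.

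RNA was sequenced in bulk from CD11b+ spleen cells of 6 Rag1 KO mice of strain C57BL/6J, taken on day 8 after a transfer of cells. Hosts without Rag1 cannot assemble antigen receptor genes and so lack their own lymphocytes with such receptors. All 6 were given unmanipulated 2D2 CD4+ T cells, which carry a receptor for myelin oligodendrocyte glycoprotein (MOG), together with B cells that had been grown in the iGB culture system and loaded with MOG protein. In the WT iGB6 group (3 mice) these were wild-type B cells transduced with the retroviral construct pMSCV-IRES2-eGFP carrying Il6. In the IgHMOG iGBGFP group (3 mice) they were IgHMOG B cells transduced with the empty pMSCV vector. The B cell genotype and the vector therefore changed together and cannot be told apart. Each group had 1 female, replicate 1, and 2 males, replicates 2 and 3. Ages are not stated in the labels.

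The alpha and beta chains pair inside the cell, and the pair decides what the receptor binds. CD11b with the beta 2 chain binds complement fragments, fibrinogen and ICAM-1 and is abundant on neutrophils and monocytes. CD11a (Itgal) with beta 2 binds ICAM molecules, and CD11c (Itgax) with beta 2 is best known from dendritic cells. The alpha 4 chain pairs with beta 1 to bind VCAM-1 and fibronectin, or with beta 7 to bind the gut vessel addressin MAdCAM-1. The alpha IIb and beta 3 chains form the fibrinogen receptor of platelets. Talins and kindlins switch integrins to the binding state from inside the cell.

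Read totals were 5955142 to 7564254 in WT iGB6 libraries and 5196339 to 6611212 in IgHMOG iGBGFP libraries. All levels below are normalized counts, the authors' read counts divided by a size factor per library, and 1 read was worth 0.789 to 1.19 of them. S100a8, a calcium-binding protein of neutrophils and monocytes, averaged 175928 ± 52931 in WT iGB6 and 126739 ± 52088 in IgHMOG iGBGFP libraries (SD, n = 3 each). The marker list of mature neutrophils summed to 269407 to 415182 in WT iGB6 and 202444 to 403655 in IgHMOG iGBGFP libraries. The B cell list summed to 56.9 to 97.9 in WT iGB6 and 92.1 to 156 in IgHMOG iGBGFP libraries. These are bulk samples, in which fewer cells of a type and less RNA per cell cannot be told apart.

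Of the 10 chains, 4 were lower in WT iGB6 libraries by limma at an adjusted p under 0.05 (Itgb7, Itgax, Itga2b and Itga4), against 334 of all 9923 genes (3.37%). None was higher, against 273 genes (2.75%). At an unadjusted p under 0.05 limma called 1 chain higher (Itgam, against 12.3% of all genes) and 5 lower (against 12.3%). The tests on recovered reads called 4 chains lower and none higher after adjustment, with edgeR (3.55% of all genes lower and 2.56% higher) and with DESeq2 (5.33% lower and 4.25% higher). In the authors' deposited table the same 4 passed as lower (4.29% of 10537 genes) and none as higher (3.89%). Log2 fold changes below set WT iGB6 against IgHMOG iGBGFP, and their median was -0.31 over the 10 chains and 0.02 over all genes tested. In 3 chains (Itgal, Itgb7 and Itga2b) every WT iGB6 library lay below every IgHMOG iGBGFP library, which held for 11.4% of all genes, and in none did they all lie above, which held for 12.2%. Of those 3, Itgb7 and Itga2b were also called, as were 2.46% of all genes. The 4 calls came from a fit with sex as a term. Without that term limma called 10 genes in all and none of the 4, with adjusted p of 0.110 for Itgb7, 0.121 for Itga2b, 0.135 for Itgax and 0.187 for Itga4.

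**Figure D1:**
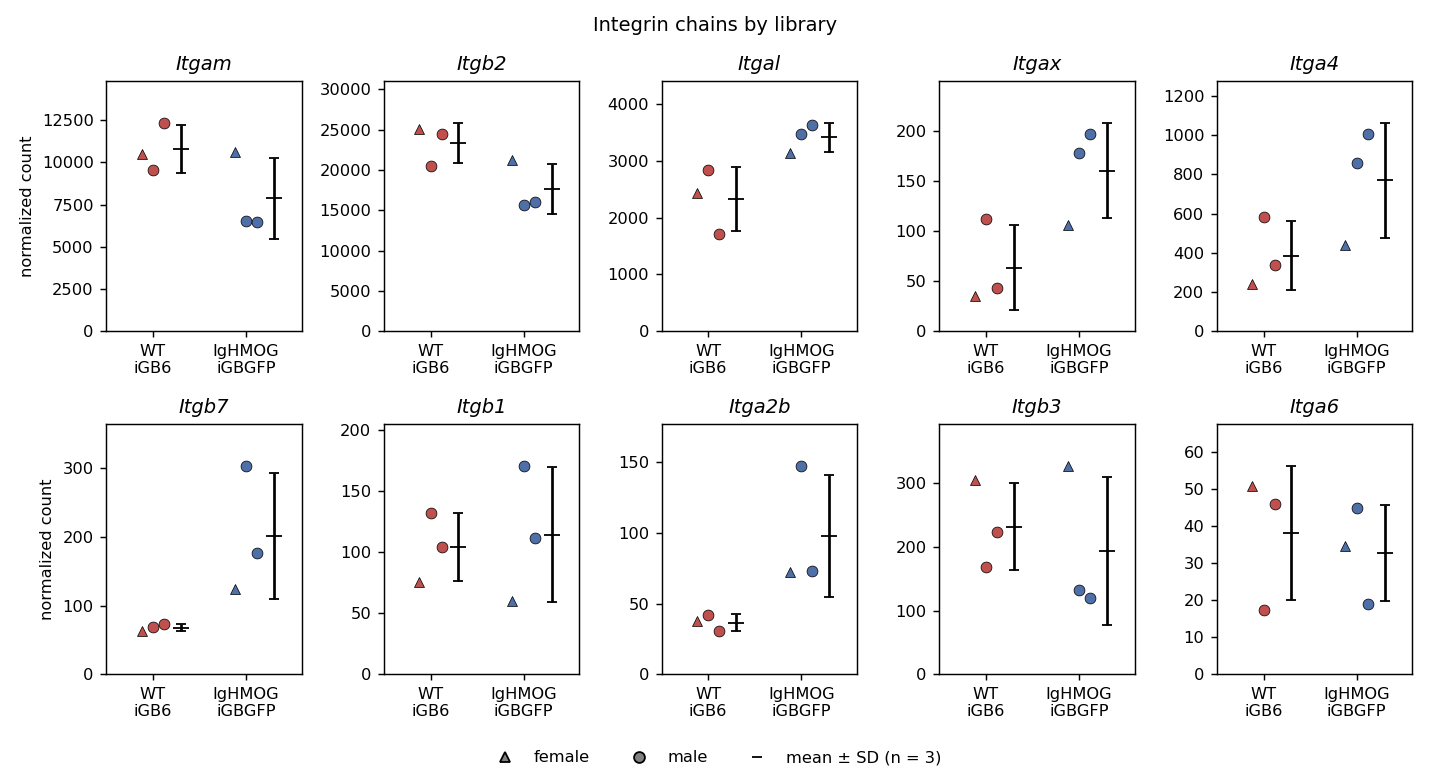
Normalized counts of the 10 chains in each library, with WT iGB6 on the left and IgHMOG iGBGFP on the right of each panel. Points are libraries, marked by the sex of the mouse, and bars are the mean and SD of 3. The groups stand apart for Itgal, Itgb7 and Itga2b and overlap for the other 7 chains.

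Promoter sequence is shown for 2 sets of chains. Itgam and Itgax are neighbours on chromosome 7, with 11056 bases between them, and had fitted differences of opposite sign. Itga4 and Itgb7 encode the partners of 1 receptor and were both called lower. Each line gives the 250 bases before the RefSeq start on the gene's own strand, build GRCm38.p6, with 3 short motifs in capitals where they occur on either strand. They are GAGGAA of the myeloid factor PU.1, AGATAA of GATA factors and TGTGGT of RUNX factors.
Itgam, chr7:128062390-128062639, plus strand: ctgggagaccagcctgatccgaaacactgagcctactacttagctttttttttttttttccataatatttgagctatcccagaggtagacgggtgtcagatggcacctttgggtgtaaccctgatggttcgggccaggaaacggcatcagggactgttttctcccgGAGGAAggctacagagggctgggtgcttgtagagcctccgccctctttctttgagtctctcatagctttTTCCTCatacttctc
Itgax, chr7:128129300-128129549, plus strand: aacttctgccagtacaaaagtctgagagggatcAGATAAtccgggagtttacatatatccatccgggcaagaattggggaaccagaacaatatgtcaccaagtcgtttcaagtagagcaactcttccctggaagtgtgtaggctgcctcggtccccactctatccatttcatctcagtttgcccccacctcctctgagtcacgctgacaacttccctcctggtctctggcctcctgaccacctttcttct
Itga4, chr2:79255176-79255425, plus strand: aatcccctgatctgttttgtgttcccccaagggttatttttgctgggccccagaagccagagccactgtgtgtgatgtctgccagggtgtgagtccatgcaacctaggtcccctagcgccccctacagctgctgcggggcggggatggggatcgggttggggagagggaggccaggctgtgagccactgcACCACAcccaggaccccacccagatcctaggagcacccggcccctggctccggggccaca
Itgb7, chr15:102231936-102232185, minus strand: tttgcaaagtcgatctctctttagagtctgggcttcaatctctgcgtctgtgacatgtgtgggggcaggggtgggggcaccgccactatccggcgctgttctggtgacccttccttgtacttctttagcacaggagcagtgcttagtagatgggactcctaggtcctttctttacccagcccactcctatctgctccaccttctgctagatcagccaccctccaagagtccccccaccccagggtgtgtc
The Itgam window held GAGGAA at 84 and, on the other strand, at 15 bases before the start. The Itgax window held AGATAA at 217 bases, the Itga4 window held TGTGGT on the other strand at 60 bases, and the Itgb7 window held none of the 3. Among 32851 RefSeq promoter windows of this length, 23.3% held GAGGAA, 9.99% held AGATAA and 14.0% held TGTGGT on either strand. These matches describe letters and not binding. By GENCODE, 3 bases of the Itgax window and 9 bases of the Itgb7 window lie in an exon. Windows were at hand for 6 of the 10 chains, the other 2 being Itgb1 and Itga2b. On either strand, GAGGAA also occurred at 9 bases in the Itgb1 window and at 126 and 44 bases in the Itga2b window. Neither held the other 2 motifs, and 180 bases of the Itga2b window lie in an exon.

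The beta 2 family, which includes the sort marker, differed among its own members. Itgax was called lower in WT iGB6 libraries, while the values of Itgam, Itgb2 and Itgal did not pass the test. Itgam (ENSMUSG00000030786, chr7:128062640-128118491, plus strand, GRCm38) had 10514, 9561 and 12352 normalized counts in WT iGB6 replicates 1, 2 and 3. In IgHMOG iGBGFP replicates 1, 2 and 3 it had 10606, 6538 and 6451. The female IgHMOG iGBGFP mouse lay among the WT iGB6 mice, and both of its males lay below all of them. For Itgam the log2 fold change was 0.49 (SE 0.22, 95% interval 0.00039 to 0.98, limma adjusted p = 0.203). It was -0.01 between the females and 0.74 between the means of the males, and with 1 library left out it ran between 0.31 and 0.74 with no call. For Itgam the interaction of sex and group had an unadjusted limma p of 0.158 and an adjusted p of 0.9996. That model called 0 genes at an adjusted p under 0.05 (0.0%) and 148 at an unadjusted one (1.49%). The only female of each group is replicate 1, so sex and anything else that replicate 1 shares cannot be told apart. GENCODE places another gene, Gm49368, over 68.7% of the exon bases of Itgam. That gene was not analysed here, and the genes of the table used here overlap 0.0% of those bases.

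Itgb2 (ENSMUSG00000000290, chr10:77530252-77565708, plus strand), the beta chain that CD11a, CD11b and CD11c share, was the most abundant chain per kilobase of exon. It had 25074, 20429 and 24458 normalized counts in WT iGB6 replicates 1, 2 and 3, against 21179, 15635 and 16050 in IgHMOG iGBGFP replicates 1, 2 and 3. The female IgHMOG iGBGFP mouse again lay within the range of WT iGB6. Its log2 fold change was 0.41 (SE 0.21, 95% interval -0.06 to 0.88, limma adjusted p = 0.263). The log2 ratio of Itgam to Itgb2 was -1.11 ± 0.13 in WT iGB6 and -1.19 ± 0.17 in IgHMOG iGBGFP libraries, a difference of 0.08 (two-sided exact permutation p = 0.5). The smallest p that 3 against 3 libraries allow is 0.1.

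Itgal (ENSMUSG00000030830, chr7:127296260-127335138, plus strand), the alpha chain of LFA-1, had 2443, 2836 and 1712 normalized counts in WT iGB6 replicates 1, 2 and 3. IgHMOG iGBGFP replicates 1, 2 and 3 had 3136, 3471 and 3644, all above the WT iGB6 libraries. The log2 fold change was -0.58 (SE 0.21, 95% interval -1.05 to -0.11) with a limma adjusted p of 0.126. It passed the threshold only when WT iGB6 replicate 2 was left out (-0.76, limma adjusted p = 0.0466), and without WT iGB6 replicate 3 it was -0.34 (limma adjusted p = 0.246).

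Itgax (ENSMUSG00000030789, chr7:128129547-128150657, plus strand), the CD11c chain, had 35.6, 112 and 42.7 normalized counts in WT iGB6 replicates 1, 2 and 3, against 106, 178 and 197 in IgHMOG iGBGFP replicates 1, 2 and 3. WT iGB6 replicate 2 was above the female IgHMOG iGBGFP mouse, so the groups overlapped, but within each sex WT iGB6 was lower. The log2 fold change was -1.46 (SE 0.33, 95% interval -2.19 to -0.74, limma adjusted p = 0.0337). It was -1.55 between the females and -1.42 between the means of the males. In the authors' deposited table the log2 fold change was -1.15 with an adjusted p of 0.00506. The Itgax exons share 8.02% of their 50-base stretches with Itgad, another beta 2 partner, which averaged 97.7 ± 78.0 in WT iGB6 and 102 ± 20.7 in IgHMOG iGBGFP libraries (SD, n = 3 each) and was not called (-0.34, limma adjusted p = 0.694).

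**Figure D2:**
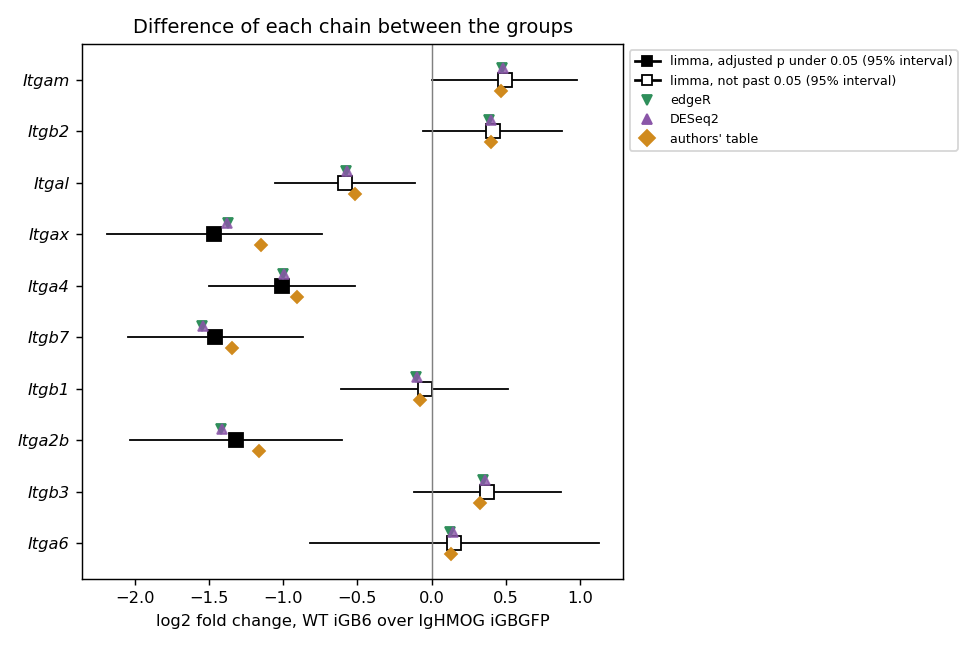
Log2 fold change of each chain, WT iGB6 over IgHMOG iGBGFP, with its 95% interval from limma. Squares are limma, filled where past the adjusted threshold, triangles are edgeR and DESeq2 on recovered reads, and diamonds are the authors' deposited table. Itgax, Itgb7, Itga2b and Itga4 are filled and left of 0, and the interval of Itgam ends just above 0.

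Set per kilobase of exon, Itgam made up most of the 3 beta 2 partner chains in every library. Its share was 84.7%, 80.7% and 90.1% in WT iGB6 replicates 1, 2 and 3, against 80.9%, 69.7% and 68.3% in IgHMOG iGBGFP replicates 1, 2 and 3. The female IgHMOG iGBGFP mouse lay above WT iGB6 replicate 2 by a small margin, so the groups overlapped. The mean shares were 85.2 ± 4.73% in WT iGB6 and 73.0 ± 6.88% in IgHMOG iGBGFP libraries, a difference of 12.2 percentage points (two-sided exact permutation p = 0.2, SD, n = 3 each). Itgal made up 14.3 ± 4.42% in WT iGB6 and 25.4 ± 6.16% in IgHMOG iGBGFP libraries (SD, n = 3 each; exact permutation p = 0.2). Itgax made up 0.538 ± 0.391% in WT iGB6 and 1.67 ± 0.719% in IgHMOG iGBGFP libraries (SD, n = 3 each; exact permutation p = 0.2). The shares of RNA say nothing of how much protein of each pair stood on the cells.

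**Figure D3:**
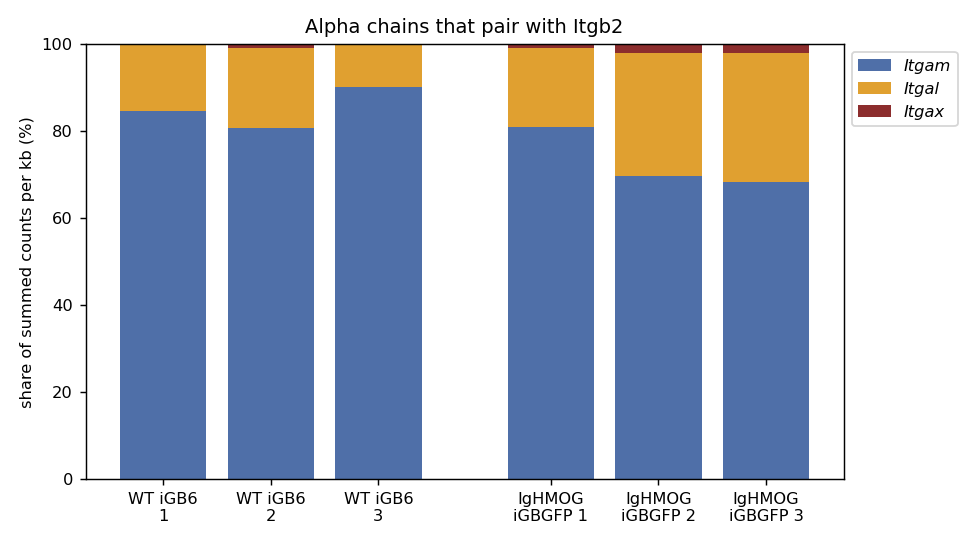
Share of Itgam, Itgal and Itgax in the sum of the 3 beta 2 partner chains, per kilobase of exon, in percent, for the 3 WT iGB6 libraries and then the 3 IgHMOG iGBGFP libraries. Each bar adds to the whole sum of 1 library. Itgam is the main share in every bar and is smallest in IgHMOG iGBGFP replicates 2 and 3.

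The alpha 4 chain and its partner beta 7 were both lower in WT iGB6 libraries, whereas the values of the other partner, beta 1, gave no call. Itgb7 (ENSMUSG00000001281, chr15:102215995-102231944, minus strand) had 62.8, 68.7 and 73.1 normalized counts in WT iGB6 replicates 1, 2 and 3. In IgHMOG iGBGFP replicates 1, 2 and 3 it had 125, 304 and 177. The WT iGB6 libraries lay close together and below every IgHMOG iGBGFP library. The mean in WT iGB6 was 0.338 times that in IgHMOG iGBGFP, and the log2 fold change was -1.46 (SE 0.27, 95% interval -2.05 to -0.87, limma adjusted p = 0.0182). In the authors' deposited table it was -1.35 with an adjusted p of 1.42e-04. Itgb7 was the only one of the 10 still called from males alone (limma adjusted p = 0.0399).

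Itga4 (ENSMUSG00000027009, chr2:79255426-79333123, plus strand), which encodes CD49d, had 241, 582 and 335 normalized counts in WT iGB6 replicates 1, 2 and 3. IgHMOG iGBGFP replicates 1, 2 and 3 had 442, 859 and 1008. WT iGB6 replicate 2 lay above the female IgHMOG iGBGFP mouse, and within each sex WT iGB6 was lower. Its log2 fold change was -1.01 (SE 0.22, 95% interval -1.50 to -0.52, limma adjusted p = 0.0318). In the authors' deposited table it was -0.90 with an adjusted p of 0.00309. Exons of Cerkl, on the other strand, cover 8.04% of the Itga4 exon bases. How reads there were counted depends on the strand setting, which is not given.

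Itgb1 (ENSMUSG00000025809, chr8:128685654-128733200, plus strand), the common beta chain of many tissues, had 75.9, 132 and 105 normalized counts in WT iGB6 replicates 1, 2 and 3. It had 60.4, 171 and 112 in IgHMOG iGBGFP replicates 1, 2 and 3, a wider range around nearly the same middle. The log2 fold change was -0.05 (SE 0.25, 95% interval -0.61 to 0.51, limma adjusted p = 0.930), and the interval leaves room for a difference in either direction.

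Ratios within a library set these chains against each other. The 7 ratios were picked after the values had been seen and their p-values were adjusted over the 7. The log2 ratio of Itgb7 to Itgb1 counts was -0.27, -0.94 and -0.52 in WT iGB6 replicates 1, 2 and 3, against 1.05, 0.83 and 0.66 in IgHMOG iGBGFP replicates 1, 2 and 3. Every WT iGB6 library lay below every IgHMOG iGBGFP library. These ratios are of normalized counts, not per length, so they compare libraries and not the levels of the chains. The difference was -1.42 (two-sided exact permutation p = 0.1, adjusted 0.28). The log2 ratio of Itga4 to Itgb1 was 1.83 ± 0.27 in WT iGB6 and 2.79 ± 0.43 in IgHMOG iGBGFP libraries, again without overlap (difference -0.96, exact permutation p = 0.1, adjusted 0.28). That of Itga4 to Itgb7 was 2.41 ± 0.60 in WT iGB6 and 1.94 ± 0.52 in IgHMOG iGBGFP libraries and overlapped (difference 0.46, exact permutation p = 0.4). Itgax over Itgam was -7.60 ± 1.03 in WT iGB6 and -5.62 ± 0.88 in IgHMOG iGBGFP libraries (difference -1.97, exact permutation p = 0.2, SD, n = 3 each).

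**Figure D4:**
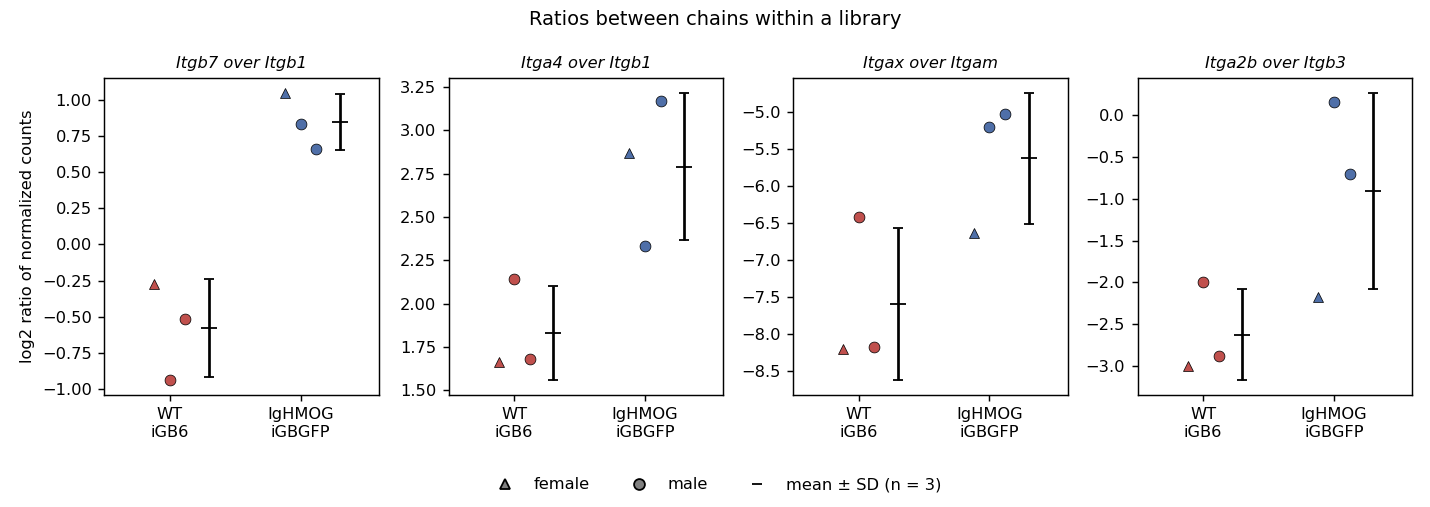
Log2 ratios of normalized counts between chains within each library, WT iGB6 on the left and IgHMOG iGBGFP on the right of each panel, with mean and SD of 3. The ratio of Itgb7 to Itgb1 is at -0.27 or lower in the 3 WT iGB6 libraries and at 0.66 or higher in the 3 IgHMOG iGBGFP libraries.

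Of the platelet receptor chains, alpha IIb was lower in WT iGB6 libraries and beta 3 gave no call. Itga2b (ENSMUSG00000034664, chr11:102453297-102470122, minus strand), the alpha IIb chain, which also marks megakaryocytes and some blood progenitors, had 37.9, 41.8 and 30.4 normalized counts in WT iGB6 replicates 1, 2 and 3. In IgHMOG iGBGFP replicates 1, 2 and 3 it had 72.6, 147 and 73.0, all above WT iGB6. A log2 fold change of -1.32 resulted (SE 0.32, 95% interval -2.03 to -0.60, limma adjusted p = 0.0414). The authors' deposited table has -1.16 with an adjusted p of 0.00910. Itgb3 (ENSMUSG00000020689, chr11:104608000-104670476, plus strand), its beta 3 partner, had 304, 167 and 223 in WT iGB6 replicates 1, 2 and 3, against 326, 133 and 119 in IgHMOG iGBGFP replicates 1, 2 and 3. Those groups overlapped, and the log2 fold change was 0.38 (SE 0.22, 95% interval -0.12 to 0.87, limma adjusted p = 0.334). The log2 ratio of Itga2b to Itgb3 was -2.62 ± 0.54 in WT iGB6 and -0.91 ± 1.17 in IgHMOG iGBGFP libraries, a difference of -1.72 with overlap (exact permutation p = 0.2, adjusted 0.28, SD, n = 3 each).

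Markers of megakaryocytes and platelets were low. The list of 11 genes, which does not hold the integrin chains, summed to 141 to 149 normalized counts in WT iGB6 and 49.0 to 102 in IgHMOG iGBGFP libraries. Of its 4 tested genes 1 passed, the platelet chemokine Ppbp, with 54.3 ± 16.1 in WT iGB6 and 13.6 ± 6.92 in IgHMOG iGBGFP libraries (SD, n = 3 each; log2 fold change 1.98, limma adjusted p = 0.0248). Limma called 2.75% of all genes higher. The platelet adhesion chain Gp9 had 1.08 (limma adjusted p = 0.126) and the receptor Clec1b had 0.00 (limma adjusted p = 0.999). The sums lay higher in WT iGB6 libraries, and none of the 11 markers was at 0 in every library. The part of megakaryocytes and platelets in the level of Itga2b was not tested.

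Itga6 (ENSMUSG00000027111, chr2:71745616-71858416, plus strand), the alpha 6 chain of laminin receptors, was the least abundant per kilobase. It had 51.0, 17.4 and 46.1 normalized counts in WT iGB6 replicates 1, 2 and 3, and 34.8, 44.8 and 19.0 in IgHMOG iGBGFP replicates 1, 2 and 3. Its low libraries fell in both groups. The log2 fold change was 0.15 (SE 0.44, 95% interval -0.82 to 1.13, limma adjusted p = 0.866), and its sign turned under several alternatives.

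Levels can be ordered between genes only per length. In normalized counts per kilobase of exon over all 6 libraries, Itgb2 (5123 to 8216) stood above Itgam (1284 to 2459), and Itgam above Itgal (261 to 555). Itgb7 (22.7 to 110) came next and was lower than Itgal in every library. Below it, Itga4, Itgb3, Itgb1, Itgax, Itga2b and Itga6 followed by mean, and every neighbouring range overlapped. Compared within a library, Itgax stood above Itga2b and Itga2b above Itga6 in all 6 libraries. The steps from Itgb7 down to Itgax turned in some libraries. Per kilobase of coding sequence, Itga4 and Itgb3 came before Itgb7 and the other positions were the same.

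Genes with the most similar course over the 6 libraries were sought for Itgam, Itgax and Itgb7 among 5218 genes with a mean of at least 100. The measure was the root mean square difference of log2 levels, each centred on its own mean. Nearest to Itgam were Metap1, a methionine aminopeptidase, at 0.048, Tnrc6b at 0.074 and Lpcat3 at 0.076. Nearest to Itgax were Ppfia4 at 0.111, Amz1 at 0.120 and the transcription factor Irf5 at 0.164. Nearest to Itgb7 were the lipid kinase Pip4k2a at 0.270, Btg1 at 0.284 and Tnfaip2 at 0.291, so its course was less closely matched than that of the other two. These are descriptions over 6 libraries that share the group difference.

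Other genes of integrin biology were followed in 6 lists, in which 69 genes were tested, 5 passed as higher and 4 as lower. Counts in these lists are read against the limma shares of all genes, 2.75% higher and 3.37% lower. Of the 17 other integrin chains, 8 were tested, 1 was higher and 1 was lower, with a median log2 fold change of -0.58. Itgb2l, a chain related to beta 2, was higher at 10920 ± 3195 in WT iGB6 and 5445 ± 3270 in IgHMOG iGBGFP libraries (SD, n = 3 each; 1.11, limma adjusted p = 0.0430), with overlapping groups. Itga1, the alpha 1 chain of a collagen receptor, was lower at 24.3 ± 8.81 in WT iGB6 and 64.4 ± 18.8 in IgHMOG iGBGFP libraries (SD, n = 3 each; -1.40, limma adjusted p = 0.0293). Itga3 was at 0 in every library.

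Among 24 ligands 10 were tested, 2 were higher and 2 were lower, with a median of -0.01. F11r, the junctional molecule JAM-A that LFA-1 binds, had 371, 766 and 523 normalized counts in WT iGB6 replicates 1, 2 and 3, against 48.1, 123 and 168 in IgHMOG iGBGFP replicates 1, 2 and 3. Every WT iGB6 library lay above every IgHMOG iGBGFP library (2.39, SE 0.25, limma adjusted p = 0.00173). Spp1, the secreted ligand osteopontin, was higher at 553 ± 162 in WT iGB6 and 107 ± 9.93 in IgHMOG iGBGFP libraries (SD, n = 3 each; 2.33, limma adjusted p = 0.00157). Fibronectin (Fn1), a ligand of alpha 4 with beta 1, fell to 537 ± 508 in WT iGB6, against 2520 ± 1081 in IgHMOG iGBGFP libraries (SD, n = 3 each; -2.55, limma adjusted p = 0.0103). Mfge8, a bridging ligand of alpha V integrins, was lower too (-1.68, limma adjusted p = 0.0339), with overlapping groups. Icam1 (-0.66, limma adjusted p = 0.203) and Vcam1 (-0.08, limma adjusted p = 0.933) were not called.

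The genes that switch and relay integrin binding gave no call by limma. Of 25 activators and adaptors 23 were tested, with a median of -0.08, and at an unadjusted p under 0.05 limma gave 4 higher and 6 lower, against 12.3% of all genes in each direction. The test by edgeR called 0 and that by DESeq2 called 4, where DESeq2 called 4.25% of all genes higher and 5.33% lower. Smallest in p were Fyb (-0.69, limma adjusted p = 0.0521) and Parvb (-1.92, limma adjusted p = 0.0609), the latter with few reads. Next came Parvg (0.65, limma adjusted p = 0.0620) and Zyx (-0.65, limma adjusted p = 0.0649). The kindlin of blood cells, Fermt3, had 0.37 (limma adjusted p = 0.187) and talin 1 (Tln1) had -0.08 (limma adjusted p = 0.837). Of 12 kinases and adaptors that signal from bound integrins 10 were tested with a median of -0.07, 2 were lower and 0 higher at an unadjusted limma p under 0.05, and edgeR and DESeq2 each called 0. The adaptor Tyrobp had -0.59 (limma adjusted p = 0.138) and the kinase Syk had -0.42 (limma adjusted p = 0.192).

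Of 10 tetraspanin partners 9 were tested, 2 were higher and 0 lower, with a median of 0.13. Cd81, a tetraspanin that associates with beta 1 integrins, was higher at 2410 ± 335 in WT iGB6 and 1352 ± 377 in IgHMOG iGBGFP libraries (SD, n = 3 each; 0.86, limma adjusted p = 0.0248). Tspan32 was also higher, with overlapping groups (0.87, limma adjusted p = 0.0364). Of 10 genes of rolling and other adhesion 9 were tested, with a median of -0.41 and 1 lower. That was Selplg, the selectin ligand PSGL-1, which fell to 3481 ± 1326 in WT iGB6, against 7626 ± 1916 in IgHMOG iGBGFP libraries (SD, n = 3 each; -1.16, limma adjusted p = 0.0267).

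**Figure D5:**
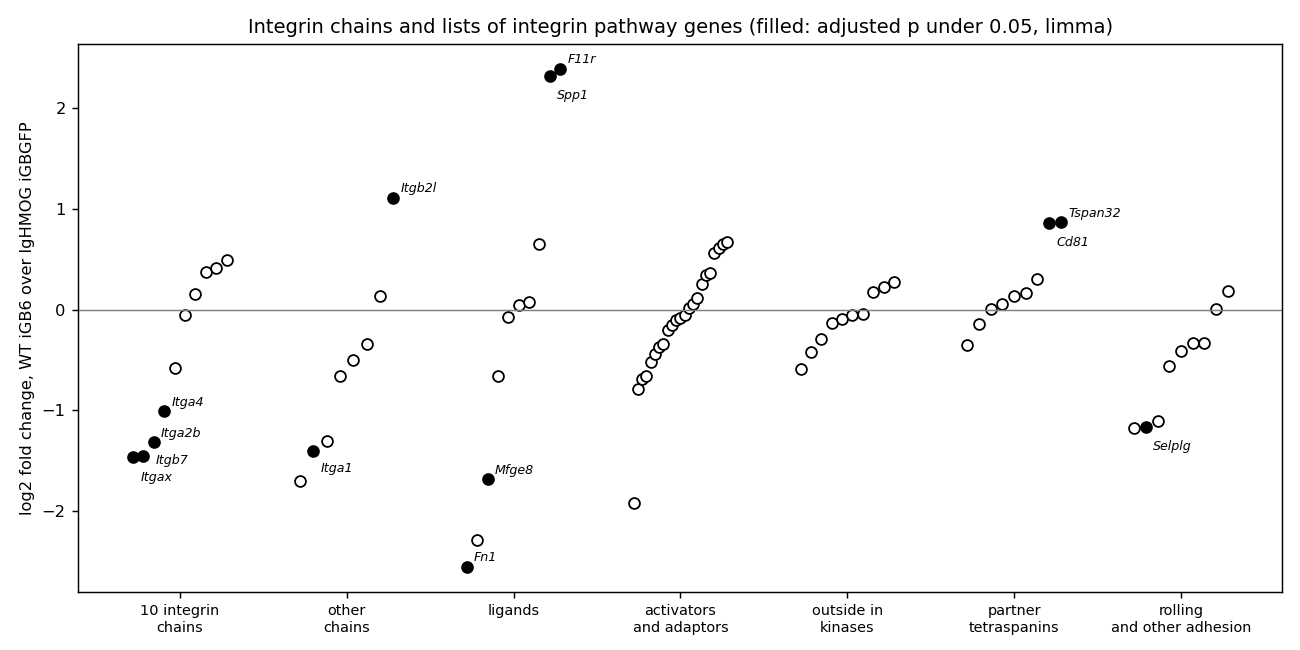
Log2 fold change, WT iGB6 over IgHMOG iGBGFP, for the 10 chains and for the tested genes of 6 lists of integrin biology. Filled points passed limma at an adjusted p under 0.05 and are named. The 4 named chains lie below 0, F11r and Spp1 lie above 2, and no activator or kinase is filled.

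Markers of other cell types moved beside the 4 lower chains. Of all genes tested, limma called 3.37% lower and 2.75% higher, and the counts of the lists below stand beside these shares. In the list of conventional dendritic cells, for which Itgax is a known surface marker, 5 of 11 tested genes were lower and 1 was higher. Over all its genes the list summed to 2694 to 3326 in WT iGB6 and 3237 to 3881 in IgHMOG iGBGFP libraries, which overlapped (two-sided exact permutation p = 0.3). Without its most abundant gene, Cd24a, it summed to 944 to 1156 in WT iGB6 and 1296 to 2474 in IgHMOG iGBGFP libraries. Its lectin Cd209a had 5.93, 68.7 and 24.7 normalized counts in WT iGB6 replicates 1, 2 and 3, against 213, 439 and 882 in IgHMOG iGBGFP replicates 1, 2 and 3 (-4.24, limma adjusted p = 0.00157). In the basophil and mast cell list 6 of 10 tested genes were lower and 0 higher. Over all its genes it summed to 12108 to 13159 in WT iGB6 and 11087 to 22490 in IgHMOG iGBGFP libraries, which overlapped (two-sided exact permutation p = 0.4). Without the most abundant gene, Hdc, it summed to 526 to 1730 in WT iGB6 and 2039 to 7857 in IgHMOG iGBGFP libraries. The receptor Cd200r3 fell, with 52.4 ± 27.2 in WT iGB6 and 356 ± 122 in IgHMOG iGBGFP libraries (SD, n = 3 each; -2.86, limma adjusted p = 0.00157), while Hdc had -0.13 (limma adjusted p = 0.768). In the T cell list, whose cells carry Itga4, Itgb7 and Itgal, 1 of 4 tested genes was lower, the adaptor Lat, and the list summed to 93.9 to 143 in WT iGB6 and 182 to 226 in IgHMOG iGBGFP libraries. The receptor chain Cd3d had 73.3 ± 11.3 in WT iGB6 and 80.9 ± 45.0 in IgHMOG iGBGFP libraries (SD, n = 3 each; -0.02, limma adjusted p = 0.981). Another receptor chain, Cd3e, was listed at 0 in all 3 WT iGB6 libraries and had at most 4 reads in an IgHMOG iGBGFP library. No marker of the dendritic, basophil or T cell lists was at 0 in every library. In the plasma cell list 1 of 4 tested genes was lower and 0 higher, with a median log2 fold change of -1.42. It summed to 190 to 223 in WT iGB6 and 224 to 675 in IgHMOG iGBGFP libraries (two-sided exact permutation p = 0.1, the smallest possible). In the B cell list 3 genes were tested, 0 were called and the median was -0.77. The part of these cells in the lower levels of Itgax, Itga4, Itgb7 and Itga2b was not tested.

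The calls rested on few libraries. With IgHMOG iGBGFP replicate 2 left out, limma called 4 genes in all and none of the 10 chains, with adjusted p of 0.112 for Itgb7, 0.208 for Itga2b, 0.183 for Itgax and 0.175 for Itga4. With IgHMOG iGBGFP replicate 3 left out it called 26 genes and none of the chains, with adjusted p of 0.0856, 0.108, 0.141 and 0.140 in the same order. With either female left out, the sex term takes up the other female, so the estimates are those of males alone. Itgb7 alone was called there. Without WT iGB6 replicate 3, Itga2b was lost (limma adjusted p = 0.0630). The directions of these 4 chains were the same in each of these fits. Scaling by total counts in place of the authors' size factors moved the median of all genes by -0.21, and 18.9% of called genes were then higher, against 45.0%. The 4 chains were called lower under both scalings.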

How the data were processed

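Bulk RNA-seq was made from CD11b+ spleen cells of 6 mice, and the sample labels gave the groups (3 mice each), the sex and the replicate number. As the labels' protocols say, low-input cDNA was amplified and no molecular identifiers are described, so floors and counts cover counting error only. According to the submitters' processing notes the tools were STAR 2.7.10b, featureCounts 2.0.3, cutadapt 4.4, FastQC 0.74 and DESeq2 2.11.40.7, with the builds GRCm38 and mm10. Annotation, strand setting and handling of reads with several places: not given in the sources used here.

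Deposited values are a signal, normalized counts, for which the authors divided the counts of each library by a size factor. Division by the smallest step gave whole reads for 100% of values within 0.001. The floor of 3 reads equals 2.37 to 3.56 normalized counts. Depth per library was 5196339 to 7564254 reads. The authors' deposited table of their DESeq2 comparison holds, beside log2 fold changes and their errors, the Wald score and the raw and adjusted p-value of each gene. It has no header, and the direction, WT iGB6 over IgHMOG iGBGFP, was read from the sign of the group means.

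Symbols, coordinates and exon lengths came from GENCODE M21 on GRCm38 (42548 of 43432 genes matched), and promoters from RefSeq, GRCm38.p6. Groups were compared with limma 3.58.1 in R 4.3.3 (eBayes with trend) on log2(normalized count + 1), which understates changes of low genes. It covered 9923 genes with a mean of at least 10, with sex and group as terms, two-sided, Benjamini-Hochberg adjustment and a threshold of 0.05. Replicate 1 is the female in both groups, so the sex term takes up anything else that number shares. Alternatives were edgeR 4.0.16 and DESeq2 1.42.0 on the recovered reads, other scaling, pseudocounts and filters, no sex term, a replicate block, males alone, each library left out, and, chosen after seeing the data, Itgad added to the sum of beta 2 partners. Tests were checked on simulated data. Those data had no sex or replicate effect, so they cannot speak to how the calls depend on the sex term or on 1 library.

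The 10 chains and all lists were chosen with earlier results of these data known. Besides the chains, genes were named by rule: up to 4 of each pathway list with the smallest p, the 2 most abundant and up to 2 with the smallest p of each cell type list, and the 3 nearest in course to Itgam, Itgax and Itgb7. Fermt3, Tln1, Itgad, Itga3, Icam1 and Vcam1 and the 7 ratios were singled out after their values were seen. Sums without the most abundant gene were computed for every list and are given for the dendritic, basophil and classical monocyte lists only.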

Additional observations from a re-analysis of the deposited data

How the results depend on the processing

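The 4 lower chains kept their direction under every alternative run, and all 4 were called with edgeR, DESeq2, total count scaling, pseudocounts of 0.5 and 5, no filter and the replicate block. At a filter mean of 50, Itga2b had an adjusted p of 0.0501 and Itga6 was not tested. The number of lower chains was 0 without the sex term, 1 from males alone and 0 to 5 with 1 library left out. Called genes over all tested were 273 higher and 334 lower, 422 and 529 with DESeq2, 459 and 620 without a filter, 6 and 4 without the sex term, and 62 and 72 from males alone. Total count scaling gave 82 higher. Leaving out 1 library gave 3 to 410 higher and 1 to 673 lower. Pathway genes called lower were 9 with DESeq2 and 9 without a filter, and higher ones were 2 under total count scaling. They were 1 higher and 0 lower without the sex term, 2 and 2 from males alone, and 0 to 5 higher and 0 to 11 lower with 1 library left out. Cell type genes called were 16 higher under total count scaling, 0 higher and 2 lower without the sex term, 8 and 12 from males alone, and 0 to 30 higher and 1 to 38 lower with 1 library left out. Without a filter the interaction of sex and group gave 1230 genes. The cause of these moves was not tested.

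Same-numbered libraries did not deviate together in every pair (correlations 0.48, 0.35 and 0.04). WT iGB6 replicates 1 and 2 were nearest to the same-numbered library, and WT iGB6 replicate 3 to IgHMOG iGBGFP replicate 1 (0.08). In the labels, the mouse numbers lie close together within each replicate number, and the sexes match. Whether the numbers mark pairs was not settled, and they were not taken as pairs. The exact permutation tests used neither pairs nor sex, so they would ignore a pairing if there is one. With the replicate block, Itgal was still not called (limma adjusted p = 0.0902). The replicate block gave 435 higher and 566 lower genes and 9 lower pathway genes.

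Signs turned, with no call before or after, under total count scaling for Itga6 (-0.051) and Clec1b (-0.20), and from males alone for Itga6 (-0.041), Clec1b (-0.072) and Cd3d (0.42). With 1 library left out the log2 fold change ran over both signs for Itgb1 (-0.23 to 0.18), Itga6 (-0.18 to 0.60), Hdc (-0.35 to 0.046), Tln1 (-0.22 to 0.040), Clec1b (-0.27 to 0.31), Cd3d (-0.26 to 0.42), Cd24a (-0.0057 to 0.50) and Itgad (-0.97 to 0.30). The log2 ratio difference of Itgam to Itgb2 was 0.25 from males alone.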

Other observations

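Lists of myeloid stages show what else differed in the cells that carry these chains. Of 11 tested genes of neutrophil precursors 9 were higher in WT iGB6 libraries and 0 lower, with a median log2 fold change of 1.88, and 12 of 18 cell division genes were higher and 0 lower, with a median of 1.10. Of 15 genes of mature neutrophils 4 were lower and 0 higher (median -0.41), and the lists of classical monocytes (5 of 15 lower, median -0.55) and nonclassical monocytes (5 of 13 lower, median -0.33) had no higher gene by limma. The sum over the classical monocyte list ran the other way, at 151409 to 205605 in WT iGB6 and 104139 to 144430 in IgHMOG iGBGFP libraries (two-sided exact permutation p = 0.1, the smallest possible). Without its most abundant gene, Chil3, that list summed to 47738 to 57426 in WT iGB6 and 55702 to 67682 in IgHMOG iGBGFP libraries, which overlapped. The nonclassical monocyte list summed to 16675 to 22322 in WT iGB6 and 12874 to 21927 in IgHMOG iGBGFP libraries, which overlapped (two-sided exact permutation p = 0.6). In the progenitor list, whose cells can carry alpha IIb, 1 of 7 tested genes was higher and 1 was lower. Kit was higher (1.04, limma adjusted p = 0.0478). Gata2, which is also in the basophil and mast cell list, was lower (-2.87, limma adjusted p = 0.0108). The progenitor list summed to 187 to 240 in WT iGB6 and 193 to 245 in IgHMOG iGBGFP libraries, which overlapped (two-sided exact permutation p = 0.6). Counts of genes called are read against 2.75% of all genes higher and 3.37% lower. The part of these stages in the levels of the chains was not tested.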
